A study of Homo sapiens with 12 samples.

Results

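The genes described here encode the proteins of the mitochondrial ribosome. They were chosen by symbol: every gene named MRPL or MRPS with a number, and at most a letter from A to C after it, in the annotation of the deposited files, with pseudogenes left out. This gave 78 of 60609 genes, of which 49 carry the MRPL symbol of the large subunit and 29 the MRPS symbol of the small subunit. They lie on 21 chromosomes, and all are nuclear genes.

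The mitochondrial ribosome translates the few mRNAs of the mitochondrial genome, which encode core subunits of the respiratory chain. Its rRNAs are transcribed inside the organelle, whereas its proteins are made in the cytosol and imported, so the ribosome is assembled from the products of both genomes. Many of the proteins are counterparts of bacterial ribosomal proteins, most of them with the same number, and others were added during the evolution of mitochondria.

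The cells were NS-SV-AC, an established human cell line of salivary gland acinar origin, and their polyadenylated RNA was sequenced from both ends in 12 libraries, 2 replicates for each of 6 groups. A compound was given to all cells: the solvent DMSO, the nucleoside analogue 2'-C-methyladenosine (2-CM), or resveratrol (RES), a polyphenol of plants. All were then transfected either with poly I:C, a synthetic mimic of viral double-stranded RNA, or with the control that the labels call depc. Each compound was added 24 h ahead of transfection and once more with it, at a dose labelled 20 μm, with an equal volume of DMSO in the control cells. Exposure to poly I:C lasted 14 h, and the growth time given is 48 h. All 6 groups are thus the same line and every group was transfected, so no untransfected cells serve as a reference. The groups address how each compound alters the cells with and without poly I:C. Nothing states that replicates came from separate cultures, so a p-value measures the spread between these libraries, which may be technical.

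Sequence on annotated transcripts amounted to 3.15 to 4.99 gigabases per library, and the member with the fewest had 103 estimated reads in its lowest library, so counting error was small for the members. Of 9 interferon-linked genes read as a check of the poly I:C label, limma called 8 higher with poly I:C under DMSO, 9 under 2-CM and 8 under RES. The shares of all genes called higher were 0.797%, 37.5% and 0.198% in the same order. Of 5 markers of simple and ductal epithelium, the keratins KRT8 and KRT18 averaged 1139 and 838 TPM. KRT7 and EPCAM were low, and KRT19 stayed under 1 TPM in every library. Of 12 acinar marker genes 10 stayed under 1 TPM in every library and 4, AQP5 among them, were listed at 0 throughout. The endothelial markers summed to at most 0.258 TPM, and the leukocyte markers PTPRC and CD3E were at 0. The acinar label was therefore not borne out by defining acinar transcripts. In bulk RNA, a lower level in every cell and fewer cells with the level cannot be told apart.

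Levels are given first, as TPM, a value scaled for transcript length and for the total of the library. All 78 genes reached 1 TPM in all 12 libraries. Their mean TPM over the libraries spanned 192-fold, from 3.35 for MRPS18B to 642 for MRPL41. In all, 31 genes averaged above 100 TPM and 9 below 20. The median gene averaged 93.6 TPM in the large subunit and 54.5 TPM in the small subunit. Most proteins of a ribosome are present in equal numbers, and the transcript levels were far from equal.

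**Figure D1:**
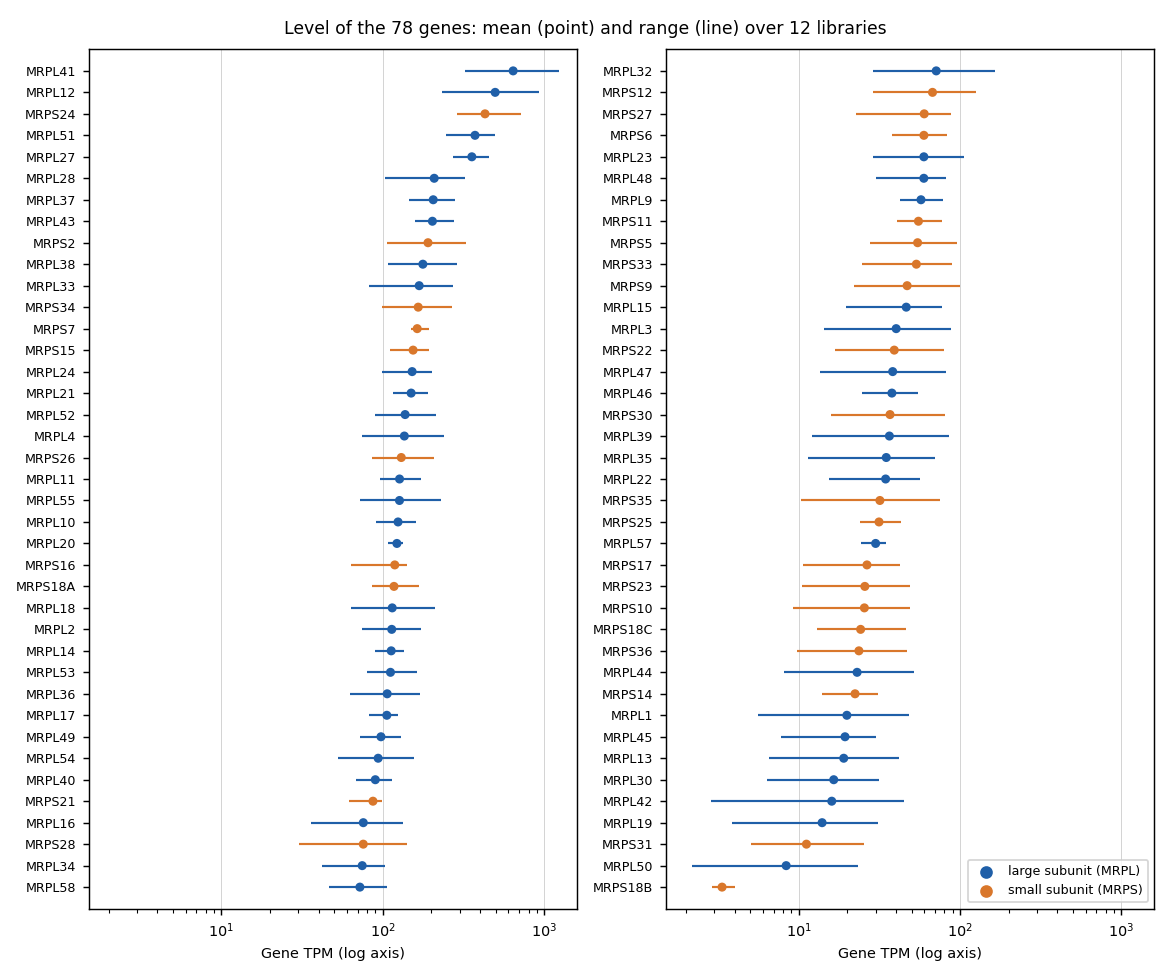
Level of each of the 78 genes as TPM on a log axis, with the mean over 12 libraries as a point, the lowest to highest library as a line, large-subunit genes in blue and small-subunit genes in orange. MRPL41 and MRPL12 stand highest, MRPS18B lies lowest with a short line, and MRPL42 and MRPL50 have long lines.

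The 5 highest genes were MRPL41, MRPL12, MRPS24, MRPL51 and MRPL27. MRPL41, a large-subunit protein without a bacterial counterpart, had 709 and 945 TPM in DMSO depc, 409 and 606 in DMSO poly I:C, 963 and 1228 in 2-CM depc, 389 and 450 in 2-CM poly I:C, 404 and 777 in RES depc, and 502 and 322 in RES poly I:C. Its 2-CM depc libraries were the highest of all, and only under DMSO and 2-CM did the poly I:C libraries lie below both depc libraries. MRPL12, the protein of the flexible stalk that recruits translation factors, averaged 497 TPM with its lowest value, 232, in a RES poly I:C library and its highest, 922, in a 2-CM depc library. MRPS24 averaged 430 TPM, and its exons are shared in part with the readthrough gene URGCP-MRPS24 at 28.4 TPM, so its reads may be split. MRPL51 averaged 373 TPM and MRPL27, the counterpart of a bacterial protein near the peptidyl transferase centre, 356 TPM.

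The 5 lowest genes were MRPS18B, MRPL50, MRPS31, MRPL19 and MRPL42. MRPL50 had 5.65 and 3.05 TPM in DMSO depc, 13.2 and 4.60 in DMSO poly I:C, 3.53 and 2.27 in 2-CM depc, 23.4 and 19.6 in 2-CM poly I:C, 5.53 and 2.19 in RES depc, and 4.79 and 12.4 in RES poly I:C. Its 2-CM poly I:C libraries stood above all others, while the replicates of the other poly I:C groups differed from each other by more than the depc replicates of DMSO. MRPL42 varied most, with 2.85 TPM in a 2-CM depc library and 44.7 in a RES poly I:C library. The other low genes averaged 11.2 TPM for MRPS31 and 14.0 for MRPL19.

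MRPS18B was low in every library and hardly varied. Of the genes for counterparts of the bacterial protein S18, MRPS18A averaged 117 TPM, MRPS18C 24.2 and MRPS18B 3.35, with MRPS18B between 2.91 and 4.03 TPM. MRPS18B lies in the major histocompatibility complex at chr6:30617840-30626395, and its start overlaps PPP1R10 on the opposite strand at 2.93 TPM. Genes beside it were also low: ABCF1 averaged 5.35 TPM, DHX16 4.25, PPP1R18 2.11 and HLA-E 13.6, and TUBB, a tubulin gene that most cells express strongly, 50.9. VARS2, the mitochondrial valyl-tRNA synthetase gene of the same complex, averaged 0.034 TPM and was at 0 in 6 libraries. How the aligner treated reads that also match alternative haplotypes of this region is not given in the sources used here, and its part in these low values was not tested.

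The least variable genes were MRPL20, with a coefficient of variation of 6.29% over the 12 libraries and values from 108 to 134 TPM, and MRPS7, with 8.47% and values from 148 to 193 TPM. Across all members this coefficient had a median of 34.1% and reached 89.5% for MRPL42. It was larger in genes of low GC content, with a Spearman correlation across the 78 genes of -0.57, and mean level was higher in genes of high GC content, with 0.74. Both are descriptions across genes that share the same libraries. GC content here is that of the gene's most abundant transcript; it ran from 33.5% for MRPL42 to 66.7% for MRPL41, with a median of 51.4% in the large and 46.8% in the small subunit.

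Starts of the genes were read from RefSeq's GRCh38.p14 table, each as 250 bases before and 50 after the annotated start, and 69 of the 78 members matched. MRPL2, MRPL10, MRPL13, MRPL15, MRPL21, MRPL23, MRPL35, MRPS28 and MRPS36 did not. A set of 6 motifs was searched on both strands. The ETS motif CCGGAAG, bound by GABPA among others, was present in 42.0% of the members against 10.3% of 35116 promoters of this length, and the YY1 motif AAGATGGC in 29.0% against 2.89%. The SP motif GGGCGG was in 60.9% against 45.0%, the E-box CACGTG in 8.70% against 7.26%, the palindromic NRF1 consensus in 1.45% against 1.24%, and TGCGCA, letters of another form of the NRF1 site that the palindrome does not contain, in 20.3% against 8.24%. The 35116 promoters were not matched to the members in expression or GC content. The shares therefore do not show a trait particular to the members. A match describes letters in the window and is neither a site nor a cause. The following 5 promoters are shown 5′ to 3′ on the strand of the gene, with matches to the NRF1 palindrome and the ETS and YY1 motifs in capitals and TGCGCA, the SP motif and the E-box not marked. MRPL50 and MRPS12 had the largest positive and negative poly I:C values under 2-CM, MRPL17 held the only full NRF1 match, MRPL51 held 2 ETS matches and a YY1 match, and MRPL46 faces MRPS11 across a shared start region.
MRPL50: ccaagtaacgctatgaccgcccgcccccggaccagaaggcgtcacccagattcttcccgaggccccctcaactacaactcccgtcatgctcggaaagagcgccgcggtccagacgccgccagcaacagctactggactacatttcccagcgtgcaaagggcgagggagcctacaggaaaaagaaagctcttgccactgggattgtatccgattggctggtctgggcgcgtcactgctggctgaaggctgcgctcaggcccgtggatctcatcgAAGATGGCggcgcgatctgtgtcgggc
MRPS12: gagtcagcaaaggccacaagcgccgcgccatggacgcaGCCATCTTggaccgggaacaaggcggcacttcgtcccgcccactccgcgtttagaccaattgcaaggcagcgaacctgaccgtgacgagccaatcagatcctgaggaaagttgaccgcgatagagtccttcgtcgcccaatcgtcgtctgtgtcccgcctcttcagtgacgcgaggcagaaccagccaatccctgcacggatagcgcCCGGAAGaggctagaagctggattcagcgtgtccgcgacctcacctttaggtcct
MRPL17: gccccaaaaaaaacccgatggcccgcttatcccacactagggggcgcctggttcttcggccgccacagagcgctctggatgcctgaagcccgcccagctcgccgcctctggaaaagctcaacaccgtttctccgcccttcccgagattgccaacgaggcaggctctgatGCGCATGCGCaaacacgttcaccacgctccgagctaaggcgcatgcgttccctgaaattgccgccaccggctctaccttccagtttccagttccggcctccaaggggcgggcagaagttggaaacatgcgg
MRPL51: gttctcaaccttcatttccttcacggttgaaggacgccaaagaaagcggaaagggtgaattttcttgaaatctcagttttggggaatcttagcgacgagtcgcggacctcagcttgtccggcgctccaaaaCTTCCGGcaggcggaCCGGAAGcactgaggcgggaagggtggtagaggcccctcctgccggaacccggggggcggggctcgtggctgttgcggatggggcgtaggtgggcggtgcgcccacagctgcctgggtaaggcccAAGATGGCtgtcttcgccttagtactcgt
MRPL46: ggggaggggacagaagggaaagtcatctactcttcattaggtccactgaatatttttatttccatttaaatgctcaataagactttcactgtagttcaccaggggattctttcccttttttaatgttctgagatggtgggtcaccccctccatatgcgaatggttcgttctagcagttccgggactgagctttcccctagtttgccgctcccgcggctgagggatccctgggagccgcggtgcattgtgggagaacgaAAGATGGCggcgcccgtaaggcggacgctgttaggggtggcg
These windows lie at chr9:101398569-101398868 on the minus strand, chr19:38930694-38930993 on the plus strand, chr11:6683291-6683590 on the minus strand, chr12:6493213-6493512 on the minus strand and chr15:88467339-88467638 on the minus strand. Members with an ETS match had a median mean level of 89.8 TPM and those without 58.4, and the median transcript GC content was 51.4% and 48.2%, so level and GC content moved together between these sets. For YY1 the medians were 63.7 TPM with a match and 75.7 without.

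Some members share their start region with a neighbour on the other strand. MRPL46 and MRPS11 are the only pair of members arranged head to head, with starts 63 bases apart on chromosome 15. MRPL46 averaged 37.8 TPM and MRPS11, the counterpart of a bacterial small-subunit protein, 55.2. Under 2-CM, MRPL46 had 35.2 and 28.2 TPM with depc and 51.4 and 55.2 with poly I:C, whereas MRPS11 had 69.7 and 76.7 with depc and 47.2 and 51.9 with poly I:C. Neither gene overlapped between these groups. The log2 fold changes were 0.74 ± 0.33 (SE) and -0.55 ± 0.22, neither of them called by limma (adjusted p = 0.0822 and 0.0614). The opposite signs were those of TPM: the values were 1.03 and 0.36 after correction for GC content, and -0.035 and -1.38 in the authors' deposited table, which called MRPS11 lower. Their transcripts had GC contents of 51.9% and 58.0%. Other close neighbours were FAU, a cytosolic ribosomal protein gene, 6 bases from MRPL49, and the complex I genes NDUFS6, 34 bases from MRPL36, and NDUFB5, 41 bases from MRPL47.

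Summed over members, the genes took 0.700% to 0.976% of all TPM. The large-subunit sum was 5883 ± 180 TPM (SD, n = 2) in DMSO depc, 5586 ± 13.9 in DMSO poly I:C, 6960 ± 153 in 2-CM depc, 5881 ± 49.8 in 2-CM poly I:C, 5242 ± 345 in RES depc and 4970 ± 21.5 in RES poly I:C. The small-subunit sum was 2250 ± 42.2, 2259 ± 25.6, 2625 ± 100 TPM, 2582 ± 86.4, 2181 ± 77.7 and 2086 ± 97.9 in the same order. 2-CM depc thus had the highest mean of both sums, and RES poly I:C the lowest. The ranking below the top depended on the scaling: the sum of all members in 2-CM poly I:C was 8463 TPM, second of the 6 groups, and became 5847 and the lowest after median-of-ratios scaling, where DMSO poly I:C had 9493 and 2-CM depc, still the highest, 11991. An exact test of 2 against 2 libraries cannot go below p = 0.333, so none is given for the sums.

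The ratio of the large-subunit to the small-subunit sum lies within a library and is free of such scaling. Gene numbers alone would give 1.69. It was 2.52 and 2.71 in DMSO depc, 2.45 and 2.50 in DMSO poly I:C, 2.68 and 2.62 in 2-CM depc, 2.21 and 2.35 in 2-CM poly I:C, 2.24 and 2.58 in RES depc, and 2.47 and 2.30 in RES poly I:C. All libraries lay above the ratio of gene numbers. Both 2-CM poly I:C libraries lay below both 2-CM depc libraries, both DMSO poly I:C libraries lay below both DMSO depc libraries, and the RES groups overlapped. The DMSO groups overlapped when the ratio was taken from medians, from the most abundant transcript or from estimated reads, and the 2-CM groups did not. With MRPS30 and MRPS18A placed in the large subunit, where structures find them, and MRPS36 left out, since it belongs to the 2-oxoglutarate dehydrogenase complex, the log2 ratio was 1.53 instead of 1.39 in DMSO depc and 1.35 instead of 1.19 in 2-CM poly I:C. The large-subunit genes have the higher GC content, which is taken up with the poly I:C results.

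**Figure D2:**
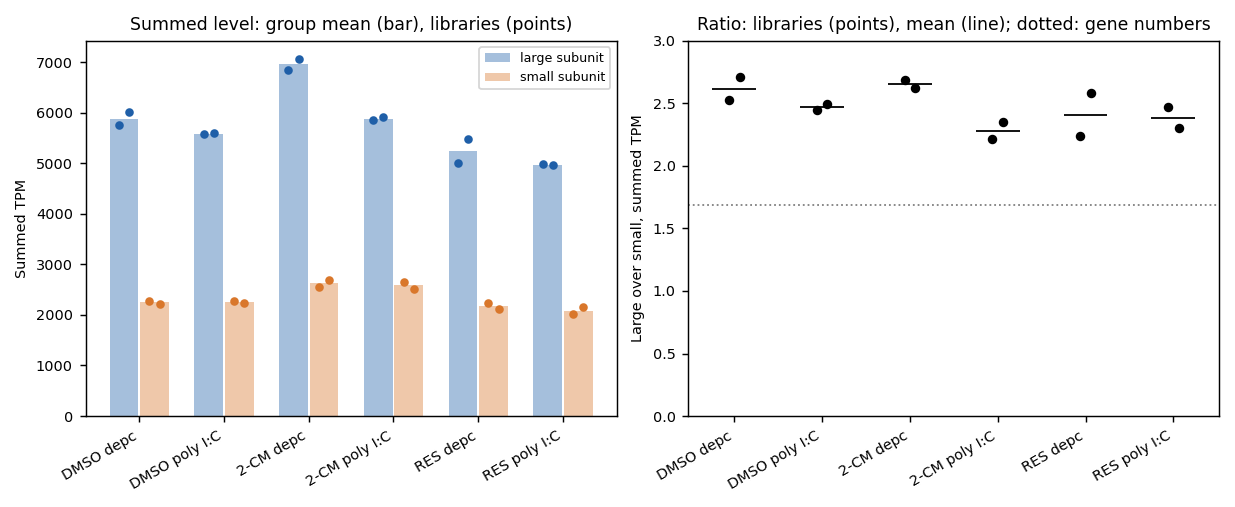
Left, summed TPM of the 49 large-subunit and 29 small-subunit genes in each group (bars, means; points, libraries); right, the ratio of the sums in each library with the group mean as a line and the ratio of gene numbers, 1.69, dotted. Every library lies above the dotted line, and 2-CM poly I:C replicate 1 is lowest at 2.21.

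Poly I:C under DMSO asked how the members respond without a compound. Only MRPL34, the counterpart of a bacterial large-subunit protein, was called. It had 55.9 and 41.7 TPM with depc and 92.3 and 92.9 with poly I:C, so both poly I:C libraries were above both depc libraries. The log2 fold change on the log2(TPM + 1) scale was 0.92 ± 0.21 (SE), with adjusted p = 0.0474 from limma. Called members were 1 of 78 higher and 0 lower, where 0.797% and 3.28% of the 17185 genes tested were called higher and lower. At an unadjusted p under 0.05 there were 10 members, 12.8%, against 19.7% of all genes. Limma on estimated reads (voom) called 0 members, against 0.652% of genes higher and 0.756% lower, and the authors' deposited table called 0, against 0.751% of its genes higher and 0.499% lower. The call on MRPL34 was lost in 11 of the 12 fits that each left out a library, where its value ran from 0.72 to 1.13.

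The member closest to a call in the other direction under DMSO was MRPL28, a large-subunit protein. It had 259 and 278 TPM with depc and 103 and 155 with poly I:C, with no overlap, and a log2 fold change of -1.08 ± 0.25 (SE, limma adjusted p = 0.0508). Over all members the median was 0.22, where the median of all genes tested was -0.14. Both medians moved with single libraries. Leaving out depc replicate 1 gave 0.37 for members and -0.014 for all genes, and depc replicate 2 gave 0.079 and -0.26. Leaving out poly I:C replicate 1 gave 0.015 and -0.34, and poly I:C replicate 2 gave 0.41 and 0.054. The members' median stayed above that of all genes in each of these fits. With upper-quartile scaling it was -0.02, where all genes had -0.34. Both poly I:C libraries were above both depc libraries for 20 members and below them for 14, where this held for 11.5% and 33.4% of all genes tested, and 44 members overlapped. Replicates lay apart: the median log2 level of the members of lower GC content was 5.81 and 4.69 in the DMSO poly I:C libraries and 4.85 and 4.29 in DMSO depc.

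Under 2-CM, some members were called higher with poly I:C and others lower. Called members were 27 higher and 20 lower of 78, 34.6% and 25.6%. Of all genes tested, 37.5% were called higher, a share near that of the members, and 11.8% lower. In the large subunit 15 rose and 14 fell of 49, and in the small subunit 12 rose and 6 fell of 29. Their log2 fold changes ran from -1.39 to 2.54 with a median of 0.60, and the median of all genes tested was 0.61. Adjusted p-values of the called members lay between 0.0241 and 0.0481. The mean level over all libraries had a median of 36.5 TPM in rising members, from 8.36 to 168 TPM, and of 145 TPM in falling members, from 59.6 to 642 TPM, so the ranges overlapped.

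The largest rises were those of MRPL50, MRPL1, MRPS35, MRPL13 and MRPL35. MRPL50, whose values are given above, rose by 2.54 ± 0.57 on the log2 scale (SE, limma adjusted p = 0.0274). MRPL1, the protein of the mobile L1 stalk, had 9.15 and 5.57 TPM with depc and 48.3 and 41.5 with poly I:C, a rise of 2.49 ± 0.62. MRPS35, a small-subunit protein without a bacterial counterpart, had 12.2 and 11.4 TPM with depc and 74.7 and 64.4 with poly I:C, a rise of 2.46 ± 0.67. In each of these genes the poly I:C libraries were several times the depc libraries and the groups did not overlap. MRPL13 had 9.28 and 6.51 TPM with depc and 41.9 and 38.0 with poly I:C, and MRPL35 18.2 and 11.4 against 70.2 and 67.6. Their log2 fold changes were 2.22 ± 0.68 and 2.18 ± 0.53.

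The largest falls were those of MRPS12, MRPL41, MRPL28, MRPL12 and MRPL23. MRPS12, the counterpart of the protein at the decoding centre of the bacterial small subunit, had 93.2 and 125 TPM with depc and 47.4 and 34.8 with poly I:C, and fell by 1.39 ± 0.49 on the log2 scale (limma adjusted p = 0.0453). MRPL41 had 963 and 1228 TPM against 389 and 450 and fell by 1.38 ± 0.35. MRPL28 had 308 and 324 TPM against 138 and 114 and fell by 1.33 ± 0.25 (limma adjusted p = 0.0241, the lowest among members). No library of one condition reached those of the other in these 3 genes. MRPL12 had 752 and 922 TPM against 331 and 335 and fell by 1.32 ± 0.29. MRPL23, the counterpart of a protein at the exit of the bacterial polypeptide tunnel, had 105 and 94.5 TPM against 34.9 and 46.4 and fell by 1.29 ± 0.34.

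The other 15 falling members had smaller changes. In the large subunit MRPL54 fell by 1.25, MRPL55 by 1.21, MRPL38 by 1.00, MRPL4 by 0.95, MRPL52 by 0.89, MRPL37 by 0.82, MRPL2 by 0.76, MRPL53 by 0.56, MRPL24 by 0.54 and MRPL43 by 0.51. In the small subunit MRPS34 fell by 1.04, MRPS24 by 0.95, MRPS18A by 0.81, MRPS2 by 0.80 and MRPS26 by 0.72. MRPL2, MRPL4, MRPL24, MRPS2 and MRPS18A carry the number of a bacterial counterpart, and the others of these 15 do not. By this numbering 16 members rose and 9 fell of the 44 with a bacterial number, 36.4% and 20.5%. Of the other 34, 11 rose and 11 fell, 32.4% each. Of all genes tested, 37.5% were called higher and 11.8% lower. The median GC content of the 2 sets was 50.2% and 47.4%, and no test compared them.

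All 4 libraries of this comparison mattered to the calls. Leaving out 2-CM depc replicate 1, 2-CM depc replicate 2, 2-CM poly I:C replicate 1 or 2-CM poly I:C replicate 2 gave 0 called members each time, with fewer libraries in the fit. Calls over all genes fell likewise, to between 0.215% and 0.262% higher and between 0% and 0.0175% lower. MRPL50 ran from 2.31 to 2.78 and MRPS12 from -1.60 to -1.17 over the 12 fits. The members' median was 0.31 without 2-CM depc replicate 2 and 0.73 without 2-CM depc replicate 1. The median of all genes was 0.55 and 0.67 in these fits. Both poly I:C libraries were above both depc libraries for 47 members and below them for 26, where this held for 62.6% and 23.9% of all genes tested, and 5 members overlapped. Markers of simple and ductal epithelium moved in the same libraries: 3 of 4 tested fell, KRT18 by 1.32, KRT8 by 1.15 and KRT7 by 0.51, and EPCAM, at most 1.23 TPM in these libraries, rose by 0.88. Their summed level was 3212 to 3531 TPM in 2-CM depc and 1391 to 1493 in 2-CM poly I:C. Of 3 fibroblast markers tested, COL1A1 fell from 84.9 and 100.3 to 41.6 and 41.2 TPM and DCN rose from 4.57 and 3.81 to 17.9 and 18.03. PDGFRB, with 9.05 and 9.83 against 6.44 and 6.36 TPM, was not called (limma adjusted p = 0.0680). The list had sums of 98.6 to 114 and 65.7 to 65.9 TPM. The GC contents were 58.5% for KRT18, 59.1% for KRT8, 63.5% for KRT7 and 61.1% for COL1A1, against 47.0% for EPCAM and 39.9% for DCN. The part of these markers in the members' calls was not tested.

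The split into rising and falling members depended on the scaling. TPM places the median of all genes at 0.61 in this comparison, and median-of-ratios and upper-quartile scaling place it at 0.03. With the former, 16 members were called higher and 26 lower, against 20.3% and 23.5% of all genes. With the latter it was 11 and 28, against 12.6% and 24.9%. All 20 members that fell were called lower in both, and of the 27 that rose 16 and 11 were called higher, none with a changed sign. The authors' deposited table called 24 members higher and 36 lower, where 23.0% and 23.5% of its genes were called, and shared 20 of the 27 rising and all 20 falling members. In that table MRPL50 had a log2 fold change of 2.05, MRPL1 1.77, MRPL41 -2.23 and MRPS12 -2.26. MRPL34, called higher from TPM at 0.85 ± 0.21, had -0.062 in the authors' deposited table and 0.0071 with median-of-ratios scaling.

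Rising and falling members differed in GC content almost without overlap. All but MRPL34 among the rising members lay between 34.8% and 50.4% GC, and falling members lay between 52.3% and 66.7%. Across the 78 members the Spearman correlation of the log2 fold change with GC content was -0.91 under 2-CM, -0.78 under DMSO and -0.85 under RES, and across all genes tested it was -0.81, -0.38 and -0.63. These are descriptions across genes, and the genes share their libraries. The same relation separated replicates of a group. Across all genes, the difference of the first from the second library of a group had a Spearman correlation with GC content of -0.68 in DMSO depc, -0.78 in DMSO poly I:C, -0.55 in 2-CM depc, -0.44 in 2-CM poly I:C, -0.79 in RES depc and 0.78 in RES poly I:C. Libraries of the same treatment thus differed along GC content too. Its part in the fold changes was not tested, and the correction for GC content given below is not a test of it.

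**Figure D3:**
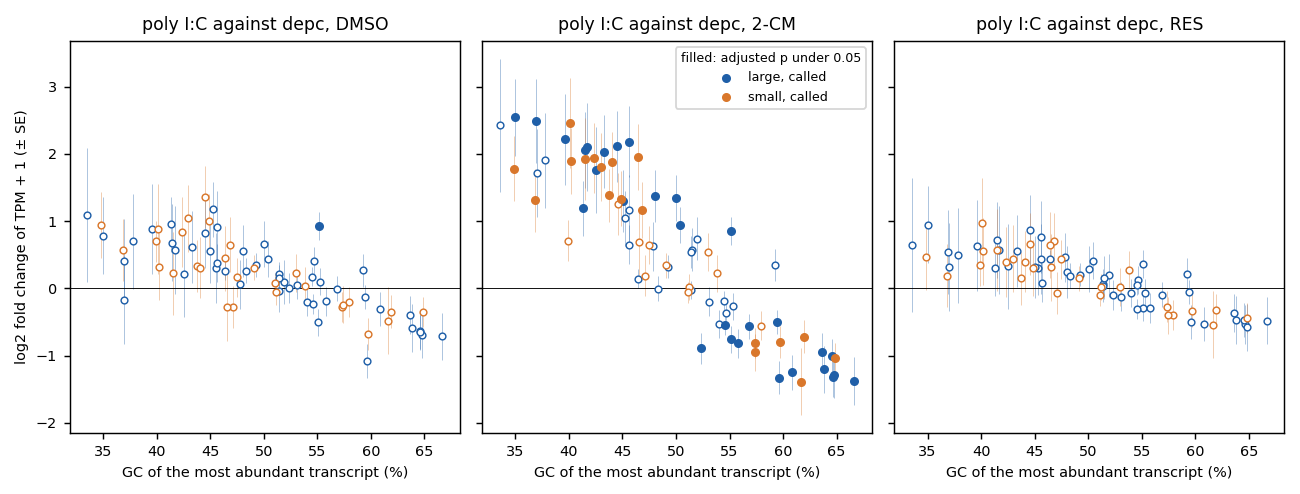
Log2 fold change of poly I:C against depc (y axis, ± SE, log2 of TPM + 1) against GC content of the most abundant transcript (x axis, percent) for the 78 members under DMSO, 2-CM and RES, large subunit in blue, small in orange, called members filled. The values fall with GC content in each panel, with Spearman correlations of -0.78, -0.91 and -0.85.

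**Figure D4:**
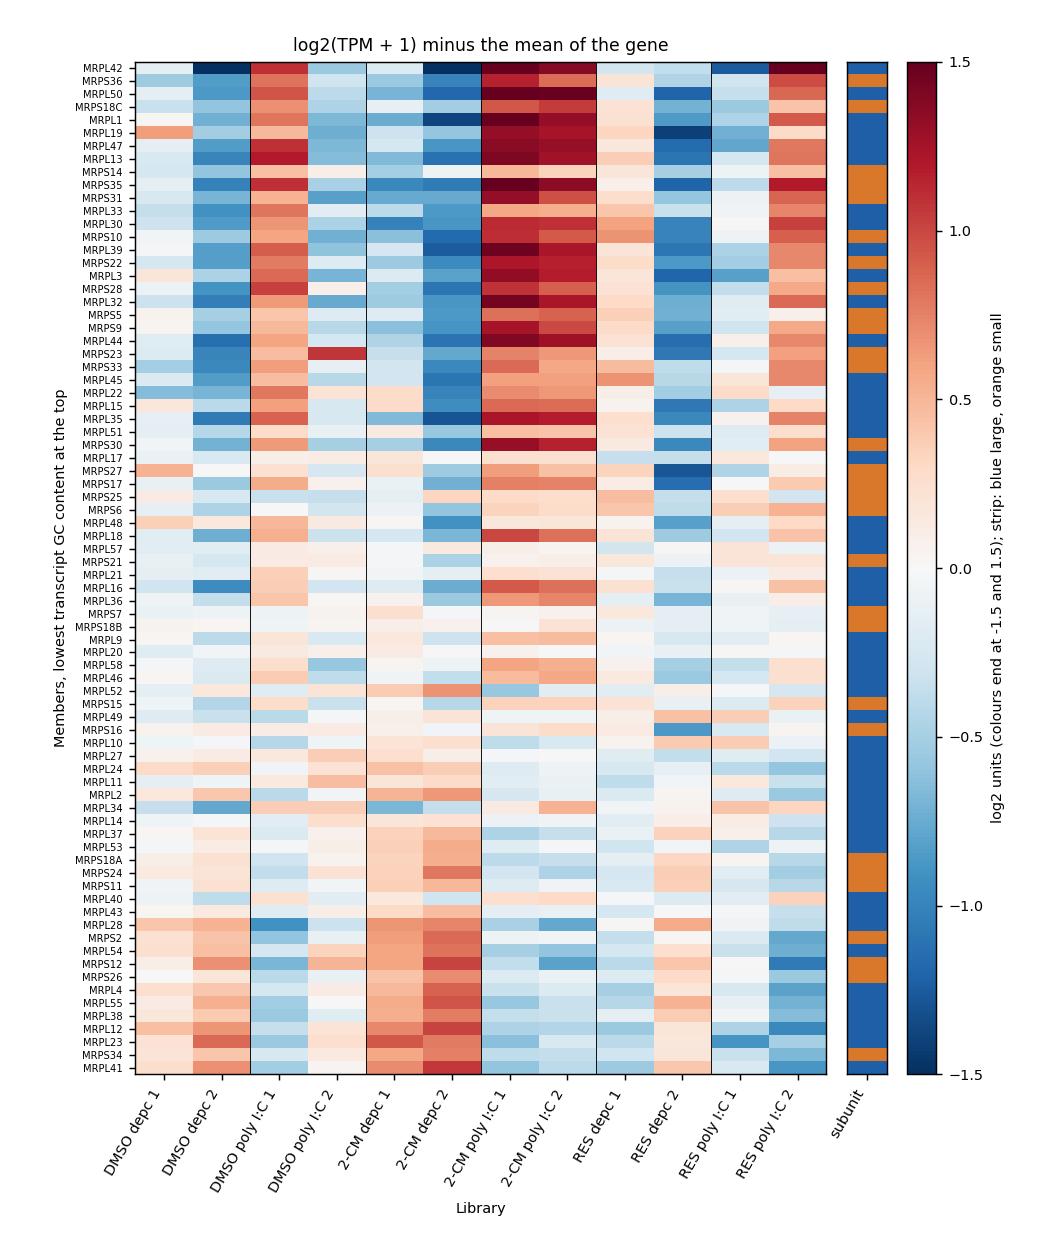
Log2(TPM + 1) of each member minus its mean, in the 12 libraries (columns), with members (rows) ordered from the lowest GC content at the top to the highest at the bottom. The 2-CM poly I:C libraries are red at the top and blue at the bottom, and replicates of DMSO poly I:C, RES depc and RES poly I:C differ from each other along the same order.

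Set against all genes on the same side of the member median of GC content, the members followed their background on the rising side. GC content was not matched within either side. Of the 39 members at or below the member median of 49.2% GC, 24 rose and 0 fell, 61.5% and 0%, where 63.7% and 0.165% of all genes in that range did. Of the 39 members above it, 3 rose and 20 fell, 7.69% and 51.3%, where 11.9% and 23.2% of all genes above the same bound did. The members' median log2 fold change was 1.72 below the bound, against 1.36 for all genes there, and -0.54 above it, against -0.13.

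After each library was corrected for GC content by a smooth curve over all genes, 24 members were called higher and 1 lower under 2-CM. Of all genes, 36.2% and 1.52% were. The curve is fitted within each library, so it also removes any response to poly I:C that follows GC content. Such a response and a technical difference cannot be told apart after it. Of the 27 rising members 20 were still called higher, 17 of them with smaller values and 3 with larger ones. Among the largest rises, MRPL50 had 1.18 ± 0.26 (SE, limma adjusted p = 0.0176), MRPL1 1.21 ± 0.30, MRPS35 1.41 ± 0.38, MRPL13 1.12 ± 0.38 and MRPL35 1.72 ± 0.38. The values that grew were those of MRPL34, from 0.85 to 1.51, MRPL36, from 0.94 to 1.04, and MRPL16, from 1.34 to 1.41. MRPS10, MRPS17, MRPS18C, MRPS36, MRPL3, MRPL33 and MRPL45 were no longer called, and MRPL9, MRPL14 and MRPL40 became called higher. Of the 20 falling members only MRPL52, the lowest of them in GC content, was still called lower, at -0.55 ± 0.17 (limma adjusted p = 0.0325). MRPL41 had -0.10 ± 0.10, MRPL12 -0.09 ± 0.12 and MRPS12 -0.25 ± 0.25. Values above 0 were found for 10 of the 20, among them MRPL43, which was called higher at 0.51 ± 0.18 (limma adjusted p = 0.0458).

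**Figure D5:**
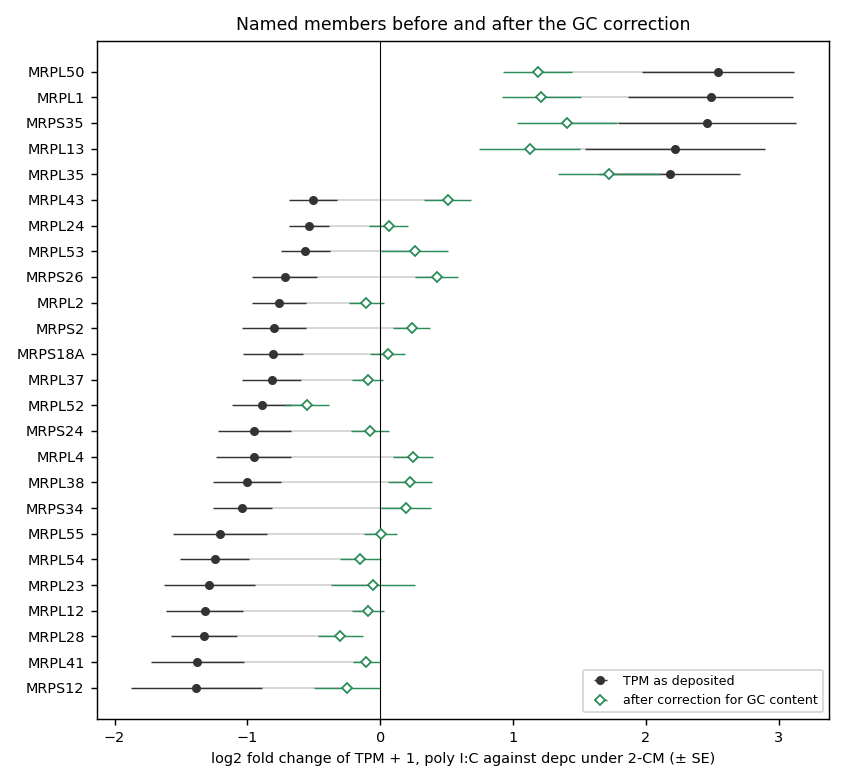
Log2 fold change of poly I:C against depc under 2-CM (x axis, ± SE) for the 5 members with the largest rise and the 20 members that fell (y axis), from the deposited TPM (filled circles) and after correction for GC content (open diamonds). The rising members stay above 1 on the log2 scale, and the falling members move to between -0.55 and 0.51.

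Other members were read for their place in the ribosome. At the stalk, MRPL12 fell under 2-CM as given above, and its partner MRPL10, with 141 and 146 TPM with depc and 94.0 and 104 with poly I:C, had -0.53 ± 0.21 and was not called (limma adjusted p = 0.0608). MRPL11, at the base of the stalk, had 142 and 153 TPM against 112 and 117, with -0.36 ± 0.21 (limma adjusted p = 0.165). Neither gene overlapped between these groups, and no test compared the genes with each other. All 3 stalk genes were called lower in the authors' deposited table, at -2.18 for MRPL12, -1.38 for MRPL10 and -1.16 for MRPL11, and after correction for GC content their values were -0.09, 0.01 and 0.25, none of them called. Of the S18 counterparts, MRPS18A fell, MRPS18C rose by 1.31 ± 0.47 (limma adjusted p = 0.0454) and MRPS18B had 0.02 ± 0.19. The authors' deposited table gave -1.68, 0.67 and -0.91 for the 3 genes and called MRPS18B lower too (adjusted p = 0.0302 there). Their GC contents were 57.3%, 36.8% and 51.2%, and after correction for GC content none of the 3 was called. MRPS30, a protein of the large subunit despite its symbol, had 22.4 and 15.9 TPM with depc and 80.2 and 71.97 with poly I:C, and rose by 1.95 ± 0.49 (1.59 ± 0.37 after correction for GC content). MRPS36 had 13.7 and 9.77 TPM against 47.1 and 37.7 and rose by 1.78 ± 0.49, but had 0.41 ± 0.21 after the correction and was not called.

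Under RES, limma called 0 members with poly I:C, where 0.198% of all genes were called higher and 0.244% lower. A single member had an unadjusted p under 0.05 in limma, as also with voom, against 14.0% of all genes in limma, and the authors' deposited table called 0, where 0.266% of its genes were higher and 0.0975% lower. That member was MRPL17, the counterpart of a bacterial large-subunit protein, with 82.0 and 81.8 TPM with depc and 117 and 105 with poly I:C, a log2 fold change of 0.43 ± 0.14 and adjusted p = 0.237. Its groups did not overlap. The lowest p in the other direction was that of MRPL54, with 73.7 and 105 TPM against 69.7 and 52.8, also without overlap, and -0.53 ± 0.26 (limma adjusted p = 0.405). Both poly I:C libraries were above both depc libraries for 5 members and below them for 6, where this held for 6.05% and 24.1% of all genes, and 67 members overlapped. For MRPL50 the replicates were 5.53 and 2.19 TPM with depc and 4.79 and 12.4 with poly I:C, so the groups overlapped.

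Whether the response to poly I:C differed under a compound was tested as a difference of fold changes. For 2-CM minus DMSO, limma called 0 members higher and 0 lower, where 0.0116% and 0.0% of all genes were called. Voom called 0 members, with 1 of 17185 genes higher and 0 lower. An unadjusted p under 0.05 was found for 5 members, 6.41%, and for 29.7% of all genes. The lowest p in each direction were those of MRPL52, at -0.89 ± 0.32 (limma adjusted p = 0.161), and MRPS9, at 1.57 ± 0.64 (limma adjusted p = 0.162). For RES minus DMSO, limma called 0 of 78 members and 0.0% of all genes, and voom called 0 members and 0 of 17185 genes. No member had an unadjusted p under 0.05, against 1.70% of all genes. MRPL34 had -0.56 ± 0.30 and MRPL28 0.57 ± 0.35 (limma adjusted p = 1.0 for both). The 47 calls under 2-CM against 1 under DMSO, that of MRPL34, which was called in both, are therefore not shown to mark a difference in response, and the response under 2-CM was not tested against that under RES. The values under the 3 compounds come from separate libraries. All 27 members that rose under 2-CM had positive values under DMSO and under RES. Of the 20 that fell, 19 had negative values under DMSO and 20 under RES. How often signs were shared among all genes was not computed. The members' values fell with GC content under each compound, so the shared signs are not shown to be particular to them. Both poly I:C libraries above both depc libraries under DMSO and below them under 2-CM was the pattern of 2 members, MRPL27 and MRPL11, where 0.925% of all genes showed it. The reverse pattern was seen in 0 members and in 9.45% of all genes. MRPL27 had 369 and 383 TPM with depc and 394 and 456 with poly I:C under DMSO, and 420 and 374 against 347 and 350 under 2-CM. Its 2-CM value of -0.18 (limma adjusted p = 0.281) became 0.41 after correction for GC content, and that of MRPL11 changed sign as well, from -0.36 to 0.25. With median-of-ratios scaling both were called lower, MRPL27 at -1.03 (limma adjusted p = 0.0347) and MRPL11 at -1.21 (limma adjusted p = 0.0448), as they were in the authors' deposited table, at -0.87 and -1.16.

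The compounds were also compared without a change of transfection. With depc, limma called 0 members for 2-CM against DMSO, where 0.00582% of all genes were higher and 0.0291% lower. Voom called 0 members and 0 of 17185 genes. At an unadjusted p under 0.05 there were 2 members, 2.56%, and 4.84% of all genes. MRPL52, with 122 and 150 TPM under DMSO and 175 and 214 under 2-CM, had 0.51 ± 0.22, and MRPL48, with 73.7 and 64.1 against 58.0 and 30.0, had -0.70 ± 0.36 (limma adjusted p = 0.721 for both). With poly I:C, 0 members were called for 2-CM against DMSO, where 0.064% of all genes were higher and 0.0407% lower. Voom called 0 members, with 1 of 17185 genes higher and 1 lower. Here 6 members, 7.69%, had an unadjusted p under 0.05, against 34.2% of all genes. MRPS31, with 14.2 and 5.05 TPM under DMSO and 25.4 and 19.7 under 2-CM, had 1.29 ± 0.50 (limma adjusted p = 0.127), and MRPL54, with 73.9 and 111 against 62.3 and 58.4, -0.58 ± 0.26 (limma adjusted p = 0.148). None of these 4 genes overlapped between its groups, but they were picked for the lowest p in each direction. The share of all genes without overlap was not computed for these 2 contrasts.

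For RES against DMSO with depc, limma called 0 members, where 0.838% of all genes were higher and 0.192% lower. Voom called 0 members, with 85 of 17185 genes higher and 29 lower. An unadjusted p under 0.05 belonged to 5 members, 6.41%, and to 14.7% of all genes. MRPL24, the counterpart of a bacterial large-subunit protein, had 182 and 190 TPM under DMSO and 125 and 136 under RES, a log2 difference of -0.51 ± 0.15 (limma adjusted p = 0.146). MRPL34 had 55.9 and 41.7 TPM against 69.7 and 74.1, with 0.56 ± 0.21 (limma adjusted p = 0.238). With poly I:C, 0 members were called for RES against DMSO, where 0.0698% of all genes were higher and 0.0873% lower. Voom called 0 members, with 8 of 17185 genes higher and 10 lower. Only 2 members, 2.56%, had an unadjusted p under 0.05, against 13.4% of all genes. MRPL24 again had the lowest p of the negative values, with 144 and 173 TPM under DMSO and 111 and 98.9 under RES and -0.59 ± 0.15 (limma adjusted p = 0.153). With either transfection RES lay below DMSO for this gene without overlap, though limma on TPM called it in neither. The share of all genes without overlap was not computed for these contrasts. MRPS6 had 58.2 and 47.5 TPM against 75.0 and 83.3, with 0.58 ± 0.29 (limma adjusted p = 0.432).

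The rest of the mitochondrial translation machinery was read from lists made by function. The counts stand beside 37.5% of all genes called higher and 11.8% called lower in this comparison. Of 5 mitoribosomal proteins without an MRP symbol, 2 rose and 2 fell with poly I:C under 2-CM: PTCD3 by 2.30 and CHCHD1 by 0.87, AURKAIP1 by -1.10 and GADD45GIP1 by -1.20 on the log2 scale. PTCD3 had 42.9% GC, CHCHD1 47.1%, AURKAIP1 65.6% and GADD45GIP1 60.2%. The fifth was DAP3, a GTP-binding small-subunit protein, at 1.09 ± 0.42 (limma adjusted p = 0.0557). These genes thus lay on the same sides of the GC range as the members did.

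Of 17 mitochondrial translation factors, 9 rose under 2-CM and 1 fell, where 37.5% and 11.8% of all genes did. GFM1 and GFM2 rose by 2.24 each and the release factor MTRF1L by 2.20. TUFM, the most abundant elongation factor, had 508 and 575 TPM with depc and 241 and 240 with poly I:C. It fell by 1.16 ± 0.21 (limma adjusted p = 0.0240). Of 21 genes for mitochondrial tRNA charging 8 rose and 0 fell, a share of rises near that of all genes. Among them were RARS2 at 1.93, NARS2 at 1.80 and QRSL1 at 1.75. Of 26 genes for assembly and rRNA modification 8 rose and 3 fell, shares no larger than those of all genes: TRMT61B at 2.22, GTPBP10 at 2.08 and MTERF3 at 2.04 led the rises, and MRM1 at -0.94, ERAL1 at -0.77 and DHX30 at -0.77 were the falls. The median transcript GC content of these lists was 44.8%, 49.8% and 52.6%, and the part of GC content in their counts was not tested. Neither DMSO nor RES gave a call in these lists.

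The mitochondrial rRNAs themselves passed no test in any of the 9 contrasts. MT-RNR2, of the large subunit, had 22778 and 22474 TPM with 2-CM depc and 30049 and 29380 with 2-CM poly I:C, a log2 fold change of 0.39 ± 0.18 (limma adjusted p = 0.0982), and MT-RNR1, of the small subunit, 5624 and 5729 against 7418 and 7261, with 0.37 ± 0.18 (limma adjusted p = 0.110). Neither overlapped between the groups. For MT-RNR1 the compounds lay further apart: DMSO had 2877 and 2763 TPM with depc and 3512 and 2545 with poly I:C, all below the 2-CM libraries. The log2 differences of 2-CM from DMSO were 1.01 ± 0.18 with depc (limma adjusted p = 0.377) and 1.30 ± 0.18 with poly I:C (limma adjusted p = 0.0572). RNA was selected by poly(A) tails, so these values describe the polyadenylated part of the rRNAs.

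Of 9 transcriptional regulators tied to mitochondrial genes, 4 rose and 0 fell with poly I:C under 2-CM, where 37.5% and 11.8% of all genes did. GABPA, the DNA-binding subunit of the factor that binds the ETS motif above, had 2.14 and 1.59 TPM with depc and 16.7 and 13.6 with poly I:C and rose by 2.50 ± 0.73 (limma adjusted p = 0.0310). YY1 had 7.90 and 7.20 TPM against 32.3 and 27.8 and rose by 1.86 ± 0.46, and MYC had 37.9 and 26.9 TPM against 115 and 111 and rose by 1.79 ± 0.32. The poly I:C libraries stood above the depc libraries in all 3, and the GC contents were 35.0%, 47.5% and 53.9%. SP1 rose by 1.13. NRF1 had 0.69 ± 0.33 and was not called (limma adjusted p = 0.101). Under DMSO 1 of the 9 was called: PPRC1, a coactivator related to PPARGC1A, had 30.2 and 29.2 TPM with depc and 17.4 and 16.1 with poly I:C and fell by 0.79 ± 0.17 (limma adjusted p = 0.0392).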

How the data were processed

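Polyadenylated RNA of 12 libraries was measured by stranded paired-end sequencing, per the labels' protocols. Per the submitters' processing notes, bcl2fastq 2.20, HISAT2 2.1.0, StringTie, DESeq2 and hg38 were used. Coverage, FPKM and TPM of each transcript come from StringTie 2.0.4, which was limited to annotated GENCODE 32 transcripts and given no strand option, per the file headers. The authors' deposited comparisons of poly I:C with depc give per gene a mean signal, a log2 fold change, its error, a test score and p-values, raw and adjusted. Strand use was not stated, and 37 members overlap another gene at 1 TPM or more, so their reads may be shared.

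Gene TPM is the sum over the gene's transcripts (Python 3.11.15). The files used held no counts, so no count model was run. In R 4.3.3, limma 3.58.1 fitted 6 group means to log2(TPM + 1) over all 12 libraries with a variance trend, for 17185 genes with 1 TPM or more in at least 2 libraries. Each fold change is on the log2(TPM + 1) scale, which understates changes of low genes. A call needed an adjusted p (Benjamini-Hochberg, over all genes of a contrast) below 0.05, in 9 contrasts, and the script was checked on simulated data. GC content came from the hg38 sequence of each gene's most abundant transcript, and the correction subtracted a lowess curve (span 0.3) from each library. Estimated reads are coverage times transcript length over read length.

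Named members were the 5 highest and 5 lowest in level, up to 5 called without overlap per contrast and direction, called members against the majority, the lowest p per direction without a call, and a fixed set by place in the ribosome. MRPL49, MRPL36, MRPL47, MRPL46, MRPS11, MRPL20, MRPS7 and the genes around MRPS18B were chosen after their values were seen. Members, lists and tests were chosen with earlier results of these data known. Alternatives were FPKM, other scalings, filters, pseudocounts, transcripts and tests, the replicate block, GC correction and leaving out libraries. Sequences are from RefSeq on GRCh38.p14. No protein sequences were used here.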

Additional observations from a re-analysis of the deposited data

How the results depend on the processing

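For poly I:C under DMSO, 1 member was called (all genes 0.797% higher, 3.28% lower). With a TPM minimum of 5 it was 2 (143 and 717 of 11841 genes), and with a pseudocount of 0.1 also 2 (147 and 607 of 17185). GC correction called 3 (216 and 466 of 17185). FPKM, upper-quartile or median-of-ratios scaling, no filter, voom, the most abundant transcript, the replicate block and only the groups compared called 0. In those settings 6 to 123 genes were called higher and 0 to 709 lower. Leaving out a library also changed the calls. For poly I:C under 2-CM, 47 were called, 0 without a filter (all genes 1.04% higher, 0.565% lower), 31 with the most abundant transcript (22.5%, 7.09%), 25 with GC correction (36.2%, 1.52%), 61 with only the groups compared (52.5%, 16.4%), 39 to 50 with FPKM, other scalings, TPM minimum 5, pseudocount 0.1 or voom, and 0 to 54 without a library. GC correction also called 5 members for 2-CM against DMSO with poly I:C (all genes 30.1% higher), 2 lower for RES against DMSO with depc (all genes 1.55% higher, 0.71% lower) and 1 lower with poly I:C (1.04% and 0.367%). For the contrasts other than poly I:C under DMSO and under 2-CM, every other setting gave 0. GC correction turned the 2-CM values of MRPL24 to 0.064, MRPL38 to 0.23, MRPL4 to 0.25, MRPL43 to 0.51, MRPL53 to 0.26, MRPL55 to 0.0026, MRPS18A to 0.055, MRPS2 to 0.24, MRPS26 to 0.43 and MRPS34 to 0.20. Without a filter 40364 genes were tested, and left-out fits had fewer libraries; otherwise the cause was not tested.

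The log2 ratio of large to small subunit, in the order DMSO depc, DMSO poly I:C, 2-CM depc, 2-CM poly I:C, RES depc and RES poly I:C, was 1.53, 1.45, 1.55, 1.35, 1.42 and 1.42 with subunits by structure, 0.90, 0.80, 1.22, 0.34, 0.99 and 0.72 from medians, and 1.08, 0.99, 1.14, 0.84, 1.01 and 0.94 from estimated reads. From the most abundant transcript it was 1.36, 1.29, 1.30, 1.15, 1.16 and 1.13, so DMSO depc was highest and RES poly I:C lowest.

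With the replicate number as a block, 51 members were called for poly I:C under 2-CM (30 higher, 21 lower), against 40.1% and 11.6% of all genes. The labels give the numbers no shared source, so the libraries are taken to share only a number. Deviations of same-numbered libraries correlated at 0.15 to 0.76 among the other 5 groups, and at -0.80 to -0.31 with RES poly I:C. With 2 replicates a group, differences of response could be read only at large sizes.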
